A study of Rattus norvegicus with 25 samples.

Results

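The genes described here are 6 subunits of the transcription factor AP-1, namely the Fos family members Fos, Fosb and Fosl2 and the Jun family members Jun, Junb and Jund. They were taken by symbol from a table of read counts with 28909 genes, and all 6 were among the 14142 genes with enough reads to be tested. There were 25 libraries of striatum, and the design text names the same number of female Sprague Dawley rats with a lesion made by 6-OHDA, a toxin that destroys dopamine neurons and serves as a rat model of Parkinson's disease. All 3 arms received levodopa, the precursor of dopamine, at 6 mg/kg QD, and the series title names it together with benserazide, which blocks its conversion outside the brain. The levodopa arm (n = 5) received no trapidil, a phosphodiesterase inhibitor that also antagonises platelet-derived growth factor, and the other arms received trapidil at 7.5 mg/kg BID (n = 10) or 15 mg/kg BID (n = 10) on top of levodopa. Dosing lasted 14 days, and tissue from the side of the lesion was taken on day 15. The labels tie its collection to 1 hour of dosing without saying before or after. No unlesioned and no levodopa-free animals were in these libraries, so every difference is between arms that were all lesioned and all received levodopa.

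AP-1 is a dimer of basic leucine zipper proteins that binds DNA at short palindromic sites. Fos proteins pair with Jun proteins, while Jun proteins can also pair among themselves. Fos, Fosb, Jun and Junb are immediate early genes, which neurons transcribe within minutes of stimulation, whereas Jund is present in most cells at a steadier level. In striatal neurons these genes respond to dopamine and its agonists. A shortened splice form of Fosb, delta-FosB, is long lived and is known to build up in the dopamine-depleted striatum during repeated levodopa. Counts per gene do not separate delta-FosB from full-length Fosb.

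RefSeq start sites on the GRCr8 build were listed for 4 of the 6 genes, and not for Fos and Jun. The 250 bases before the start are shown for Fosb, which held none of the motifs searched, and for Junb and Jund, which did. Capitals mark matches to the cyclic AMP response element TGACGTCA or to its core TGACG, read on either strand (the core read backwards is CGTCA).
Fosb (chr1:88089185-88089434, minus strand): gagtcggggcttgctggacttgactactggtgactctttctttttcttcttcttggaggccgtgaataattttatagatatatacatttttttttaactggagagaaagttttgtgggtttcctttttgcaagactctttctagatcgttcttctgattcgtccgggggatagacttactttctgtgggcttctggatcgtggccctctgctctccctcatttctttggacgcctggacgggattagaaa
Junb (chr19:40080876-40081125, plus strand): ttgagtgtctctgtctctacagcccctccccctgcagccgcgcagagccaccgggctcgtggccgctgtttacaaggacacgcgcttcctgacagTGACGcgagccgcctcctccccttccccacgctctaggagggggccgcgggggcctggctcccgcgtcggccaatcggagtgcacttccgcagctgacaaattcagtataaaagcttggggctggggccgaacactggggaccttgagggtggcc
Jund (chr16:18769772-18770021, minus strand): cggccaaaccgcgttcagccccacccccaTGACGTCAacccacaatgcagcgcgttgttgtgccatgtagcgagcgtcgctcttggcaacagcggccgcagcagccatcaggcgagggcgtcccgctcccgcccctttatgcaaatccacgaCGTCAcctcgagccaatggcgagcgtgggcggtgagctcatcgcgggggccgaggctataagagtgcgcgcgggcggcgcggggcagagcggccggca
The Jund window held 1 full element, which contains the core in each direction, and 1 further core 98 bases before the start. Junb held 1 core 155 bases before the start, and the Fosb and Fosl2 windows held none. No match to the AP-1 site TGANTCA or to the CArG box, the site bound by serum response factor, was found in any of the 4. Among 33469 RefSeq promoter windows of the same length, 1.59% held TGACGTCA, 18.22% the core, 6.34% the AP-1 site and 1.5% the CArG box. These matches describe the sequence before 1 listed RefSeq start per gene, and whether striatal transcripts use that start was not tested.

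Total counts ran from 10838513 to 20532290 per library, and the level of a gene is given as CPM, its read count after scaling for library size. Markers of spiny projection neurons, the main striatal cell type, were all detected and summed to between 9556 and 17054 CPM, while markers of cortical excitatory neurons summed to between 24.1 and 84.7 CPM. Libraries stood apart before any comparison. On the first principal component of all tested genes (29.4% of the variance), 6 libraries lay between -29.0 and -10.4, namely levodopa replicates 1, 2, 3 and 5 together with replicates 1 and 6 of the lower dose. Levodopa replicate 4 lay at 6.0, among the other trapidil libraries at -7.1 to 16.1. The 7.5 mg/kg replicate 1 also had the lowest total count, and levodopa replicate 2 the highest share of mitochondrial reads, 17.3%. Fos, Jun and Junb followed the same split in 2 of these libraries. In the 7.5 mg/kg replicate 1 they lay within the range of levodopa replicates 1, 2, 3 and 5, and in levodopa replicate 4 they were the lowest of that arm. Results that rest on these libraries are therefore given with and without them, and whether these 2 libraries carry the right arm labels was not tested. The 7.5 mg/kg replicate 1 was also the highest of its arm for Fos, Jun and Junb. Leaving out either library therefore widens a fall of these genes at 7.5 mg/kg by construction. A pass gained that way is not separate support. The labels do not state library by library that each came from a different animal, so p-values measure the spread between these libraries.

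**Figure D1:**
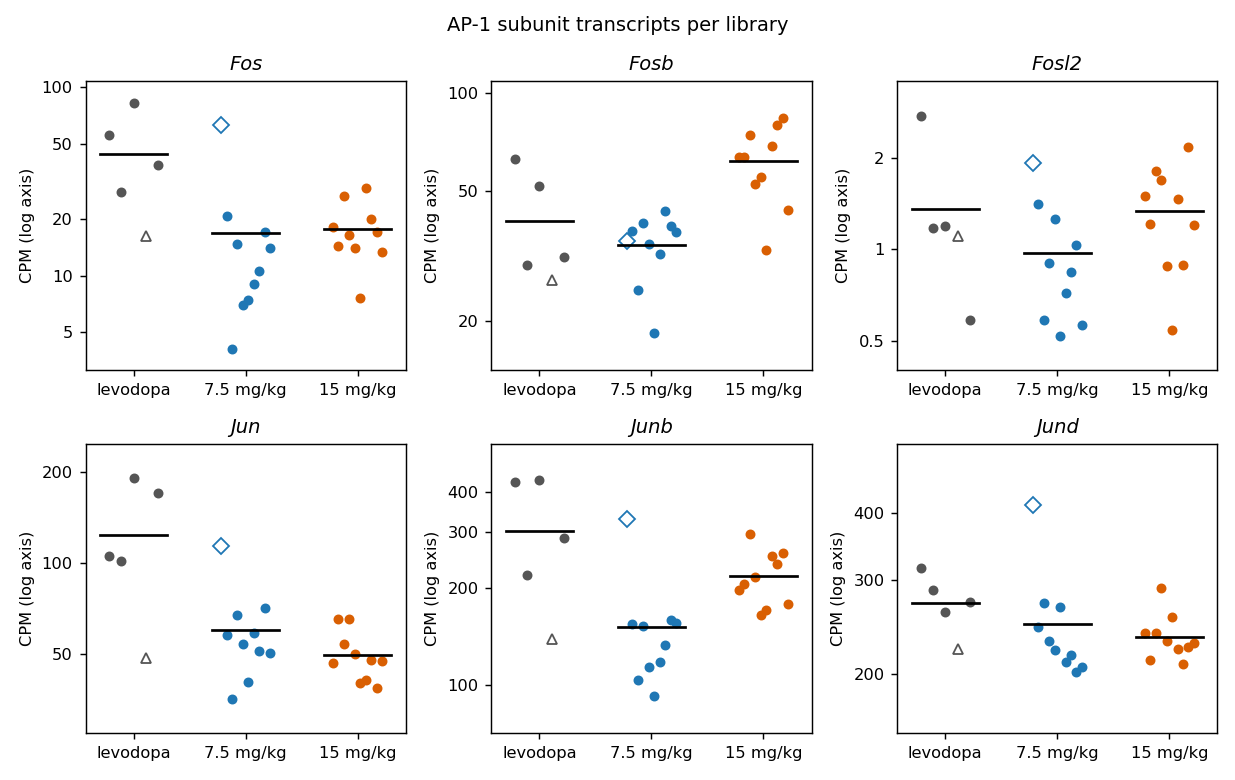
Level of each AP-1 subunit in CPM (log axis, 1 panel per gene) in the 25 libraries by arm, with arm means. The open diamond is the 7.5 mg/kg replicate 1, the highest of its arm for Fos, Fosl2, Jun, Junb and Jund, and the open triangle is levodopa replicate 4, the lowest of its arm for Fos, Fosb, Jun, Junb and Jund.

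Jun, the founding member of the Jun family and a substrate of the JNK kinases, was the subunit whose level fell past the test. In levodopa replicates 1 to 5 it stood at 105.7, 101.4, 190.7, 48.4 and 170.5 CPM. At 7.5 mg/kg it ran from 35.5 CPM through a median of 55.8 to 114 CPM, and at 15 mg/kg from 38.4 through 47.6 to 65.1 CPM. All levodopa libraries but replicate 4 stood above every library of the 15 mg/kg arm, so the arms overlapped through that 1 library. The arm means were 123 ± 57.4 CPM (SD, n = 5), 59.8 ± 21.7 CPM (SD, n = 10) and 49.5 ± 9.47 CPM (SD, n = 10). At 15 mg/kg Jun fell by 1.32 ± 0.22 on the log2 scale against levodopa (SE; edgeR quasi-likelihood test, adjusted p = 0.00751), which is 2.50-fold lower, and 10 of 10 libraries lay below the levodopa mean. In that comparison 1.31% of all tested genes passed. In bulk tissue, fewer cells of a type and less RNA per cell cannot be told apart.

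For Jun at 7.5 mg/kg the difference from levodopa was -1.05 ± 0.23 (SE, log2; edgeR adjusted p = 0.0924), with 9 of 10 libraries below the levodopa mean, and it did not pass. It did pass without the 7.5 mg/kg replicate 1, at -1.20 (edgeR adjusted p = 0.00364), and without levodopa replicate 4, at -1.25 (edgeR adjusted p = 0.00395). Both omissions widen the fall by construction. With each library left out in turn the difference ran from -1.25 to -0.84. For the mean of both doses Jun fell by 1.18 ± 0.20 (edgeR adjusted p = 0.00527; 19 of 20 libraries below the levodopa mean), where 0.806% of tested genes passed. The comparisons with levodopa share their 5 levodopa libraries. Between the doses Jun differed by -0.27 ± 0.19 on the log2 scale, with a 95% interval of -0.66 to 0.12.

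The levodopa libraries varied more in Jun than the others, with an SD of log2 CPM of 0.77 against 0.45 and 0.26 in the 7.5 and 15 mg/kg arms. With limma-voom, which allowed each arm its own spread, the change at 15 mg/kg was -1.19 (limma-voom adjusted p = 0.053) and missed the threshold (0.0354% of genes were called by limma-voom there). Without levodopa replicate 3, the library with the highest Jun, it was -1.11 (edgeR adjusted p = 0.0543). Oligodendrocyte markers moved with the same comparison. All 10 markers had negative differences at 15 mg/kg (median -0.61), each at an unadjusted edgeR p under 0.05, a limit met by 19.5% of all tested genes. Of the 10, 5 passed as lower with edgeR, among them Cnp, Opalin and Mal, and 7 with DESeq2. Over all genes edgeR called 1.31% and DESeq2 4.86% in that comparison, in either direction. None was at 0. Their summed level ran from 10802 to 19765 CPM with levodopa. It ran from 7452 to 16515 CPM at 7.5 mg/kg and from 6590 to 13928 CPM at 15 mg/kg. With the oligodendrocyte marker score in the model Jun stood at -1.15 (edgeR adjusted p = 0.19), and with the first principal component in it at -1.06 (edgeR adjusted p = 0.134). Among the other marker lists, 1 of 7 tested endothelial markers (Slco1a4), 1 of 6 cortical neuron markers (Slc17a6) and 1 of 4 choroid plexus markers (Ttr) passed as lower with edgeR at 15 mg/kg. All 7 endothelial markers had negative differences there (median -0.45), 6 at an unadjusted edgeR p under 0.05, and DESeq2 called 5. Of the 6 cortical neuron markers 4 had negative and 2 positive differences. The other 3 choroid plexus markers had positive differences (median of the 4 0.86), and the list summed to a median of 1.37 CPM with levodopa and 5.86 CPM at 15 mg/kg. All 7 tested ependymal markers had positive differences there (median 1.17; 6 at an unadjusted edgeR p under 0.05), with a median sum of 18.8 CPM with levodopa and 51.1 CPM at 15 mg/kg. Differences were negative for 9 of 9 astrocyte markers (median -0.18) and 8 of 9 microglia markers (median -0.29). Endothelial markers summed to 439.6 to 795.3 CPM with levodopa and to 368.4 to 454.5 CPM at 15 mg/kg, with Cldn5 listed at 0 in all libraries. The 795.3 CPM was levodopa replicate 2, and the next levodopa library stood at 473.1 CPM. That replicate also had the highest oligodendrocyte (19765 CPM), astrocyte, microglia, pericyte and choroid plexus sums of all libraries. Its spiny projection neuron sum, 9556 CPM, was the lowest of all. The part of these lists in the result was not tested. With the cortical marker score in the model Jun stayed called at -1.24 (edgeR adjusted p = 0.0248).

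Junb, an early-response subunit that pairs with Fos proteins and can restrain Jun, had its lowest levels at 7.5 mg/kg. Its levels in levodopa replicates 1 to 5 were 430.2, 219.3, 434.2, 139.3 and 287.8 CPM. They ran from 92.1 through a median of 143 to 329 CPM at 7.5 mg/kg and from 165 through 212 to 294 CPM at 15 mg/kg. The highest value at 7.5 mg/kg was replicate 1. The other 9 libraries of that arm lay below every 15 mg/kg library. The arm means were 302 ± 130 CPM (SD, n = 5), 151 ± 66.9 CPM (SD, n = 10) and 218 ± 42.3 CPM (SD, n = 10). Against levodopa the difference was -1.0 ± 0.23 at 7.5 mg/kg (SE, log2; edgeR adjusted p = 0.134) and -0.47 ± 0.23 at 15 mg/kg (edgeR adjusted p = 0.265), and neither passed. DESeq2 called Junb and Jun lower at 7.5 mg/kg (DESeq2 adjusted p = 0.0404 and 0.0289), where it called 0.413% of all genes. Without the 7.5 mg/kg replicate 1 Junb passed with edgeR at -1.20 (edgeR adjusted p = 0.00156), and without levodopa replicate 4 at -1.18 (edgeR adjusted p = 0.0139). Both omissions widen the fall by construction. With each library left out in turn the difference at 7.5 mg/kg ran from -1.20 to -0.83. Between the doses Junb was 0.53 ± 0.20 higher at 15 mg/kg on the log2 scale, with an unadjusted edgeR p of 0.0113 and an adjusted p of 0.999. Without the 7.5 mg/kg replicate 1 that difference was 0.73 (edgeR adjusted p = 0.148).

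Jund, the Jun family member whose level is steady in most tissues, was measured with the narrowest intervals of the 6. In levodopa replicates 1 to 5 it stood at 314.9, 287.0, 260.7, 222.8 and 272.8 CPM. It ran from 202 through a median of 226 to 414 CPM at 7.5 mg/kg and from 209 through 229 to 290 CPM at 15 mg/kg. The arms overlapped widely, and the highest library of all was again the 7.5 mg/kg replicate 1. Its log2 difference from levodopa was -0.13 ± 0.12 at 7.5 mg/kg and -0.21 ± 0.12 at 15 mg/kg, with 95% intervals of -0.38 to 0.12 and -0.46 to 0.04. Differences of Jund as large as that of Jun lie outside these intervals. The sign of the Jund difference turned with the first principal component or the oligodendrocyte score in the model (0.11 with either at 15 mg/kg).

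Fos, the prototype immediate early gene and a common marker of neuronal activity, had the widest spread of the 6 within the 7.5 mg/kg arm. Its levels in levodopa replicates 1 to 5 were 55.5, 27.7, 83.0, 16.2 and 38.5 CPM. At 7.5 mg/kg they ran from 4.10 through a median of 12.3 to 63.2 CPM, and at 15 mg/kg from 7.63 through 16.8 to 29.4 CPM. The 63.2 CPM of the 7.5 mg/kg replicate 1 lay far above the next library of its arm at 20.7 CPM, and the 16.2 CPM of levodopa replicate 4 lay inside both trapidil arms. Mean levels were 44.2 ± 26.1 CPM (SD, n = 5), 16.8 ± 17.1 CPM (SD, n = 10) and 17.7 ± 6.36 CPM (SD, n = 10). The log2 difference from levodopa was -1.43 ± 0.41 at 7.5 mg/kg (SE; edgeR adjusted p = 0.2) and -1.32 ± 0.41 at 15 mg/kg (edgeR adjusted p = 0.0799), and neither passed, although 9 of 10 and 10 of 10 libraries lay below the levodopa mean. For the mean of both doses it was -1.38 ± 0.36 (edgeR adjusted p = 0.0581). Without the 7.5 mg/kg replicate 1 Fos passed at both doses, at -1.93 (edgeR adjusted p = 0.00335) and -1.32 (edgeR adjusted p = 0.0193). Without levodopa replicate 4, the lowest of its arm, Fos passed at 15 mg/kg, at -1.54 (edgeR adjusted p = 0.0312), where 894 genes were called in all. At 7.5 mg/kg it then stood at -1.65 (edgeR adjusted p = 0.0885). With each library left out in turn the difference ran from -1.93 to -1.08 at 7.5 mg/kg and from -1.54 to -0.97 at 15 mg/kg. The doses differed by 0.11 ± 0.36 in Fos, with a 95% interval of -0.63 to 0.85.

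Fosb, a Fos family member with a long-lived splice form, had its highest levels at 15 mg/kg. It stood at 63.0, 29.7, 51.9, 26.7 and 31.4 CPM in levodopa replicates 1 to 5. It ran from 18.3 through a median of 36.4 to 43.6 CPM at 7.5 mg/kg and from 33.0 through 63.8 to 84.0 CPM at 15 mg/kg. Of the 15 mg/kg libraries, 9 of 10 lay above every 7.5 mg/kg library, and 6 of 10 above every levodopa library. Mean levels were 40.6 ± 16.0 CPM (SD, n = 5), 34.3 ± 7.57 CPM (SD, n = 10) and 62.0 ± 16.1 CPM (SD, n = 10), so that the order was 15 mg/kg, levodopa, 7.5 mg/kg. The log2 difference from levodopa was -0.24 ± 0.21 at 7.5 mg/kg (SE; edgeR adjusted p = 0.657) and 0.61 ± 0.21 at 15 mg/kg (edgeR adjusted p = 0.106), neither of which passed.

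Between the doses Fosb was 0.85 ± 0.17 higher at 15 mg/kg (SE, log2; 95% interval 0.51 to 1.20), 1.81-fold, with an unadjusted edgeR p of 2.6e-05 and an adjusted p of 0.0728. It ranked 5 by p among the 14142 genes of that comparison, in which 4 genes passed, 0.0283% of those tested. The call sat at the threshold. DESeq2 called Fosb (DESeq2 adjusted p = 0.0122; 0.0309% of genes called), as did edgeR on the 2 trapidil arms alone (adjusted p = 0.0215) and with the cortical score in the model (edgeR adjusted p = 0.0226). It also passed without 15 mg/kg replicate 6 (edgeR adjusted p = 0.00998) or replicate 10 (edgeR adjusted p = 0.043), and without levodopa replicate 1 (edgeR adjusted p = 0.0301) or 4 (edgeR adjusted p = 0.0417). The levodopa libraries are in neither arm of this comparison and enter it through the spread estimated over all arms. Limma-voom did not call it (limma-voom adjusted p = 0.0761; 0.0354% of genes called), and with the oligodendrocyte score the edgeR adjusted p was 0.178. The size of the difference stayed between 0.78 and 0.86 over the alternatives other than leaving out 1 library.

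Fosl2, a Fos family member known to lack the strong activation domain of Fos, was scarce, with 9 to 50 reads in a library. It stood at 2.75, 1.17, 1.19, 1.11 and 0.58 CPM in levodopa replicates 1 to 5, at 0.520 to 1.93 CPM (median 0.872) at 7.5 mg/kg and at 0.541 to 2.17 CPM (median 1.34) at 15 mg/kg. The arms overlapped throughout, and levodopa replicate 1 was the highest library of all. The log2 difference was -0.50 ± 0.33 at 7.5 mg/kg and -0.03 ± 0.32 at 15 mg/kg, with 95% intervals of -1.18 to 0.17 and -0.70 to 0.63. The interval at 15 mg/kg includes changes in either direction of over 1.5-fold, and without levodopa replicate 1 the value at 15 mg/kg was 0.40.

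**Figure D2:**
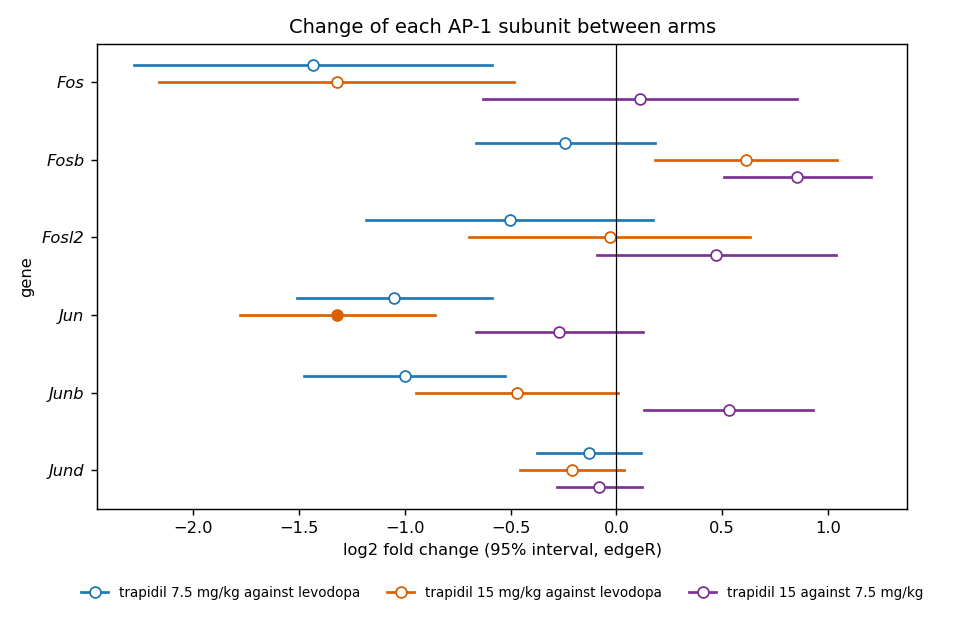
Log2 fold change of each subunit in the 3 comparisons between arms from the edgeR fit of all 25 libraries, with 95% intervals, filled where the adjusted p was below 0.05. Jun is filled at 15 mg/kg (-1.32), and Fosb between the doses (0.85) is open.

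Counted together, 0 of 6 subunits passed at 7.5 mg/kg with edgeR, against a background of 0.0283% of tested genes, and 1 of 6, Jun, passed at 15 mg/kg, against the 1.31% given above. At an unadjusted edgeR p under 0.05 there were 3 of 6 at 7.5 mg/kg (Fos, Jun and Junb, all lower), where 11.7% of genes met that limit. There were 3 of 6 at 15 mg/kg (Fos and Jun lower, Fosb higher) against 19.5% of genes. Between the doses there were 2 of 6 (Fosb and Junb, both higher at 15 mg/kg) against 3.63%, and for the mean of both doses 3 of 6 (Fos, Jun and Junb, lower) against 18.1%. The median log2 difference over the 6 was -0.75 at 7.5 mg/kg, -0.34 at 15 mg/kg and 0.29 between the doses, while that of all tested genes was 0.00 in each. In 0 of 6 subunits did the CPM ranges of any pair of arms stay apart. Ranges stayed apart for 0.0919% of genes at 7.5 mg/kg against levodopa, 0.707% at 15 mg/kg and 0% between the doses. DESeq2 called 2 of 6 lower at 7.5 mg/kg and limma-voom 0 of 6, with 0.0141% of genes called by limma-voom. Without the 7.5 mg/kg replicate 1, the highest of its arm for Fos, Jun and Junb, edgeR called those 3 of 6 at 7.5 mg/kg and 70 genes in all.

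**Figure D3:**
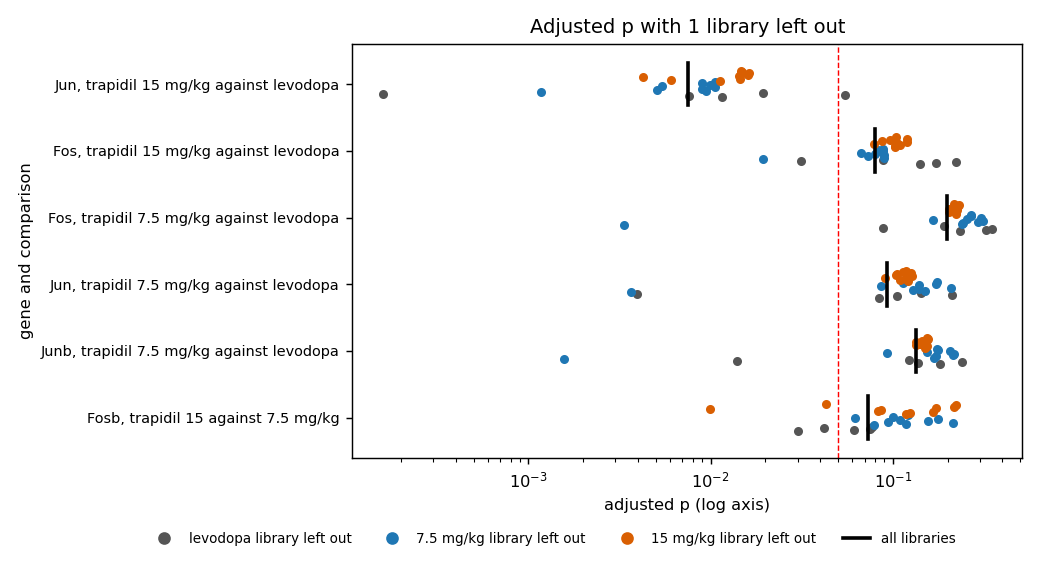
Adjusted p (edgeR, log axis) of the subunits when each of the 25 libraries was left out in turn, with the black bar at the value from all libraries and the dashed line at 0.05. Jun at 15 mg/kg crosses the line without levodopa replicate 3 (0.0543). Fos, Jun and Junb at 7.5 mg/kg drop below it without the 7.5 mg/kg replicate 1, the highest library of that arm for each.

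Whether 2 subunits moved apart was tested on the log2 ratio of their CPM in each library, with exact or 100000-resample permutation tests adjusted over 6 such tests. The ratio of Fosb to Fos in levodopa replicates 1 to 5 was 0.18, 0.10, -0.67, 0.70 and -0.29. It ran from -0.83 to 2.46 at 7.5 mg/kg, with the lowest value in replicate 1, and from 1.22 to 2.26 at 15 mg/kg. All 10 libraries of the 15 mg/kg arm lay above every levodopa library, and 9 of 10 of the 7.5 mg/kg arm did. The mean ratio rose from 0.00 ± 0.52 (SD, n = 5) to 1.37 ± 0.92 (SD, n = 10) at 7.5 mg/kg and to 1.81 ± 0.32 (SD, n = 10) at 15 mg/kg. The difference at 15 mg/kg was 1.81, a 3.51-fold higher ratio (two-sided exact permutation p = 0.000666, adjusted p = 0.0040). At 7.5 mg/kg it was 1.37 (two-sided exact permutation p = 0.014, adjusted p = 0.028), and 1.61 without replicate 1 of that arm. The doses differed by 0.44 (two-sided permutation p = 0.163, adjusted p = 0.196).

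Most genes stood higher relative to Fos in the trapidil arms. The ratio to Fos of the other 14141 tested genes differed from levodopa by a median of 1.56 at 7.5 mg/kg and 1.17 at 15 mg/kg. At 7.5 mg/kg 87.9% of those genes had a larger difference than Fosb, so the ratio there does not set Fosb apart from other genes. At 15 mg/kg 1.54% had a larger one. The arms did not overlap in this ratio for 0.219% of those genes at 15 mg/kg and for 0.0141% at 7.5 mg/kg.

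The ratio of Jun to Jund was -1.28 ± 0.71 (SD, n = 5) with levodopa, -2.08 ± 0.43 (SD, n = 10) at 7.5 mg/kg and -2.25 ± 0.26 (SD, n = 10) at 15 mg/kg on the log2 scale. It fell by 0.81 at 7.5 mg/kg (two-sided exact permutation p = 0.0213, adjusted p = 0.032) and by 0.98 at 15 mg/kg (two-sided exact permutation p = 0.00333, adjusted p = 0.00999). Of the 15 mg/kg libraries 6 of 10 lay below every levodopa library, and the others lay above levodopa replicate 4 alone. Without levodopa replicate 3 or 5 the difference at 7.5 mg/kg was -0.60 or -0.66 and no longer passed (two-sided exact permutation p = 0.0639 in both cases). Between the doses the ratio differed by -0.17 (two-sided permutation p = 0.296). Jun alone differed from levodopa by -1.05 and -1.32 at the 2 doses and Jund by -0.13 and -0.21, so this ratio largely repeats the fall of Jun. Whether it sets Jund apart from other genes was not tested.

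**Figure D4:**
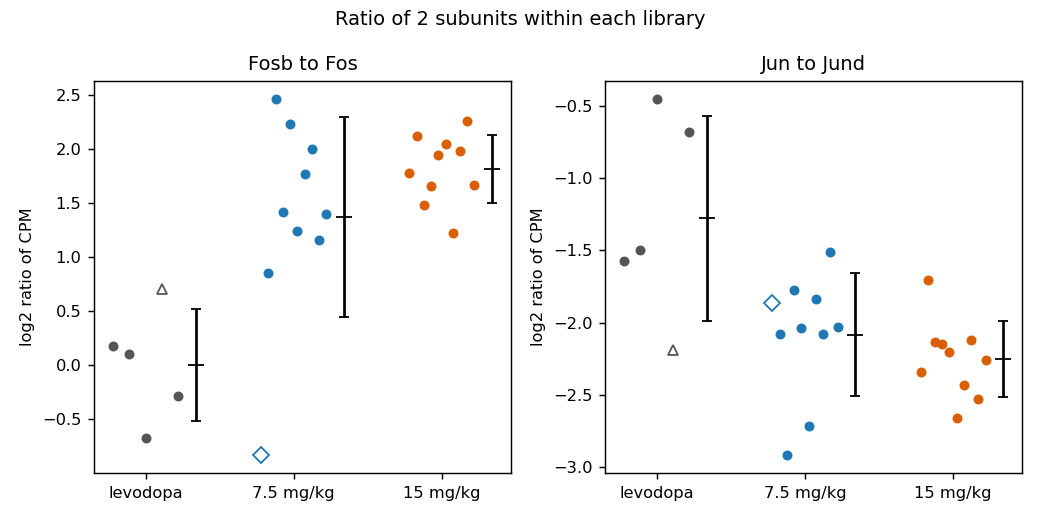
Log2 ratio of Fosb to Fos and of Jun to Jund in each library by arm, with bars for the mean ± SD, an open diamond for the 7.5 mg/kg replicate 1 and an open triangle for levodopa replicate 4. The 15 mg/kg libraries sit at 1.22 or above for Fosb to Fos, all above the levodopa libraries, which reach 0.70.

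Within an arm the subunits varied together in sets that can be read from 15 pairs in each trapidil arm (30 relations in all; the levodopa arm has too few libraries). In the 7.5 mg/kg arm Fos and Junb went together most closely. Pearson's r of their log2 CPM (pseudocount 2) was 0.96 over 10 libraries (permutation p = 0.0002, adjusted p = 0.0060) and Spearman's rho 0.90 (permutation p = 0.0010, adjusted p = 0.030), and r was 0.89 without the 2 libraries farthest from the median of Fos. In the 15 mg/kg arm Fos and Junb again varied together, with r = 0.80 (permutation adjusted p = 0.0258), rho = 0.81 (permutation adjusted p = 0.0758) and r = 0.84 without the 2 farthest libraries. Fosb had r = 0.79 to Fos and 0.78 to Junb (both permutation adjusted p = 0.0308), rho = 0.76 and 0.81 (permutation adjusted p = 0.0759 and 0.0758), and r = 0.66 and 0.72 without the 2 farthest. In the 7.5 mg/kg arm Fosb had r = 0.45 with Fos and 0.53 with Junb (permutation adjusted p = 0.282 and 0.224). Without the 2 farthest libraries these stood at 0.56 and 6.2e-05, and without replicate 1 at 0.65 and 0.86.

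Jun varied with Fos and Junb in the 7.5 mg/kg arm. There its r was 0.91 with Fos (permutation adjusted p = 0.0121) and 0.91 with Junb (permutation adjusted p = 0.0125), with rho of 0.76 and 0.72 (permutation adjusted p = 0.0759 and 0.0871). Without the 2 farthest libraries r was 0.59 and 0.71, and the 2 libraries left out included replicate 1 in both cases. At 15 mg/kg r was 0.04 with Fos and -0.02 with Junb (both permutation adjusted p = 0.966), with rho of 0.01 and -0.01. Jun spanned only 1.70-fold between the lowest and highest library of that arm, against 3.85-fold for Fos. Whether these correlations differ between the arms was not tested. In all, 6 of 15 pairs passed by r at 7.5 mg/kg and 3 of 15 at 15 mg/kg, and 1 pair, Fos and Junb at 7.5 mg/kg, passed by both measures. The 6 include Fosl2, at 9 to 24 reads, with Fos, Jun and Junb (r = 0.77, 0.81 and 0.76). Without the 2 farthest libraries these stood at 0.38, 0.64 and 0.32. The median r over the 15 pairs then went from 0.55 to 6.2e-05 at 7.5 mg/kg and from 0.10 to 0.22 at 15 mg/kg.

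**Figure D5:**
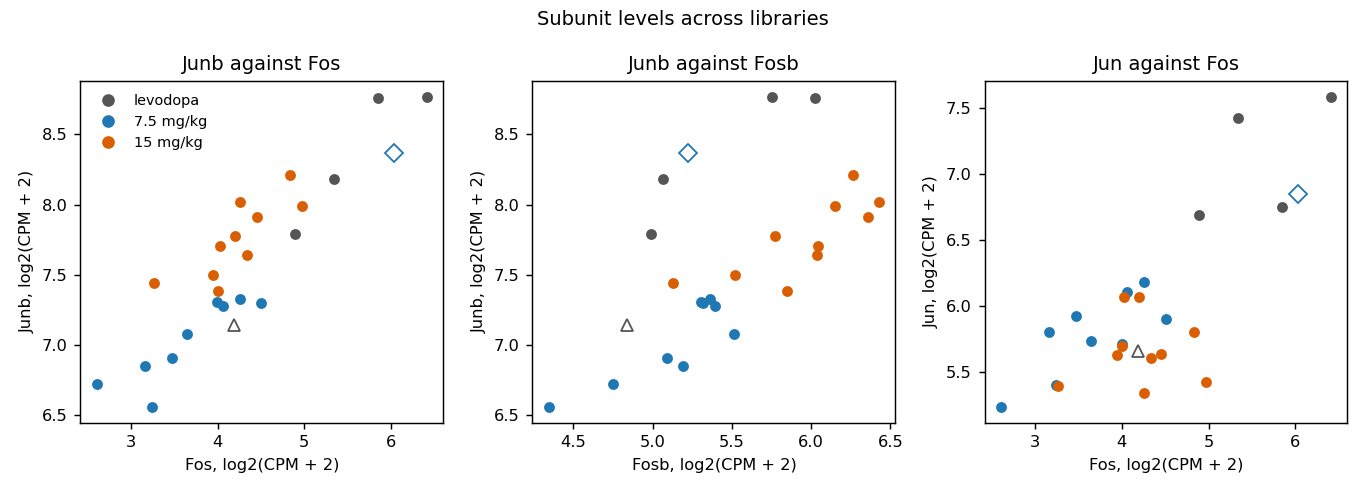
Log2 CPM of pairs of subunits, 1 point per library coloured by arm, with an open diamond for the 7.5 mg/kg replicate 1 and an open triangle for levodopa replicate 4. Fos and Junb rise together within both trapidil arms (r = 0.96 and 0.80), while Jun is nearly flat against Fos at 15 mg/kg (r = 0.04).

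As a description, the genes whose log2 CPM followed each subunit most closely over the 25 libraries were sought among 10700 genes with a mean of at least 5 CPM. All points share the arm, so r after removing the arm means is given in second place. Fos was most like Arc (r = 0.96, then 0.95), Dusp1 (0.96, then 0.95) and Trib1 (0.91, then 0.85). Junb was most like Egr4 (0.96, then 0.95), Nr4a1 (0.96, then 0.96) and Egr2 (0.95, then 0.92). Fosb was most like Irs2 (0.87, then 0.76), Nr4a3 (0.87, then 0.83) and Arl5b (0.83, then 0.70). Jun was most like Dusp2 (0.92, then 0.85), Ppp1r15a (0.89, then 0.82) and Ppfia3 (0.85, then 0.86), with a rho of 0.68 for the first of these. Jund was most like Eef2 (0.92, then 0.92), Bsg (0.92, then 0.91) and Mapk8ip1 (0.91, then 0.91), and Fosl2 most like Rbm22 (0.70, then 0.73), Tmem185a (0.69, then 0.74) and Egr4 (0.65, then 0.61). The 99th percentile of r over the compared genes was 0.82 for Jund. For the other subunits it lay between 0.47 (Junb) and 0.59 (Jun). Jund also followed the first principal component (r = -0.82, then -0.82). No gene was among the closest 3 of both Jun and Fos.

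Few genes that act with or on the 6 subunits passed. At 15 mg/kg 19.5% of all tested genes had an unadjusted edgeR p under 0.05, for comparison with the counts given below. Of 16 listed basic leucine zipper partners of AP-1, 11 were tested and 0 passed in any comparison with edgeR (3 at an unadjusted p under 0.05 at 15 mg/kg) or with DESeq2 or limma-voom. Atf2, which pairs with Jun, came nearest at 15 mg/kg at 0.25 ± 0.09 (SE, log2; edgeR adjusted p = 0.106). Of 23 kinases and scaffolds upstream of Fos and Jun, 23 were tested and 0 passed with edgeR (10 at an unadjusted p under 0.05 at 15 mg/kg) or limma-voom. Their median at 15 mg/kg was 0.07 against 0.00 for all genes, with 17 of 23 differences positive and 6 negative. Rps6ka1, a kinase of the ribosomal S6 kinase family and among the 6 negative, came nearest at -0.57 ± 0.16 (edgeR adjusted p = 0.0629). With the oligodendrocyte score in the model Rps6ka1 stood at -0.044 (edgeR adjusted p = 0.965), and with the first principal component at -0.10 (edgeR adjusted p = 0.794). DESeq2 called Rps6ka1 at 15 mg/kg, where it called 4.86% of all genes. Of 13 tested factors that bind AU-rich messenger RNA, 0 passed with any of the 3 tools (4 at an unadjusted edgeR p under 0.05 at 15 mg/kg), and Zfp36, which promotes decay of such messages, stood at -0.47 ± 0.17 at 7.5 mg/kg (edgeR adjusted p = 0.325). Of 11 tested regulators of Fos and Jun protein 0 passed with any of the 3 tools (1 at an unadjusted edgeR p under 0.05 at 15 mg/kg).

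Among 16 tested transcription factors that act on the Fos and Jun promoters, 1 passed with edgeR at 15 mg/kg and for the mean of both doses, Elk3, a ternary complex factor that works with serum response factor. At 15 mg/kg 8 of the 16 had an unadjusted edgeR p under 0.05, as did 19.5% of all tested genes. Differences there were negative for 7 of the 16 and positive for 9. Elk3 fell at 15 mg/kg by 0.39 ± 0.10 on the log2 scale (edgeR adjusted p = 0.0457). It stood at 14.2 ± 3.26 CPM with levodopa (SD, n = 5) and at 10.9 ± 0.572 CPM with the higher dose (SD, n = 10), and the 2 ranges did not overlap. Its difference was -0.23 without levodopa replicate 2 and -0.17 with the oligodendrocyte score in the model, neither of which passed. The call ended in 22 fits, out of 11 alternatives and 25 fits with 1 library left out. DESeq2 called Elk3 at 15 mg/kg, and Elk3 and Crebbp for the mean of both doses, where it called 3.16% of all genes. Limma-voom called 0 of the 16 in any comparison, and 0.0283% of all genes for that mean. Of 20 tested genes known as targets of AP-1 or delta-FosB, 0 passed with edgeR or limma-voom in any comparison (6 at an unadjusted edgeR p under 0.05 at 15 mg/kg), with a median of 0.13 at 15 mg/kg against 0.00 for all genes. At that dose 15 of the 20 differences were positive and 5 negative. Ccnd1, the cyclin D1 gene, came nearest at -0.52 ± 0.14 (edgeR adjusted p = 0.0551) and was 1 of the 3 that DESeq2 called lower at that dose, with Cck and Hmox1. The Ccnd1 difference shrank to as little as -0.14 over the alternatives and to -0.22 with 1 library left out. Sgk1 stood at 0.41 ± 0.16 between the doses (edgeR adjusted p = 0.999).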

How the data were processed

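PolyA RNA of 25 striata was sequenced, and raw counts per gene were deposited in 1 table by the authors. The submitters' processing notes name FastQC, STAR, HTSeq and Rnor_6.0. Versions, annotation and strand are not given in the sources used here, so reads of overlapping or antisense genes cannot be told apart. Arms were read from the titles, and all 25 columns were used. No pair within an arm agreed within sampling noise (lowest chi-square per degree of freedom 4.83).

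Genes passing edgeR's filterByExpr (14142) were scaled by TMM and tested with edgeR 4.0.16 (R 4.3.3, quasi-likelihood, arm as factor, all libraries, two-sided, Benjamini-Hochberg over all genes, threshold 0.05). Each SE was derived from the quasi-likelihood F. Total counts of at least 10838513 give Fos 77 to 1391 reads and Fosl2 9 to 50. Ratios used a pseudocount of 0.5 CPM and correlations 2 CPM. The steps were tested on simulated data.

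Alternatives were RLE and upper-quartile scaling, no filter, DESeq2 1.42.0, limma-voom (limma 3.58.1) with quality weights, 2 arms alone, the replicate number as a block, marker scores, the first principal component (this and the oligodendrocyte score chosen after seeing the data) and each library left out. Pathway genes were named by a rule: up to 3 passing members per list and comparison, or the member with the smallest p. Members and lists were chosen with earlier results of these data known. Sequences are from RefSeq (GRCr8), whereas the counts are on Rnor_6.0.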

Additional observations from a re-analysis of the deposited data

Results flagged for a closer look

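In 18 sets of libraries (6 genes in 3 arms), the highest or lowest library was compared with its nearest neighbour by Dixon's gap ratio. It stood apart in 5. Chance gives about 1 in 20 for independent sets of normally distributed values. These sets are untransformed CPM and share their libraries, so the count of 5 cannot be set against that rate. The 7.5 mg/kg replicate 1 was the library that stood apart in 4 of the 5. There Fos stood at 63.2 CPM against 20.7 CPM in the next library, Jun at 114 CPM against 70.5 CPM, Junb at 329 CPM against 159 CPM and Jund at 414 CPM against 271 CPM. The same library had the lowest total count, 10838513. Fosl2 stood at 2.75 CPM in levodopa replicate 1 against 1.19 CPM in the next library of that arm.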

How the results depend on the processing

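The 5 levodopa libraries limit every comparison with levodopa, and 9 to 50 reads limit Fosl2. At 7.5 mg/kg the count of 0 subunits called became 2 with DESeq2 and 3 with levodopa replicate 2 and the 7.5 mg/kg replicate 1 both left out, and ran from 0 to 3 with 1 library left out. At 15 mg/kg the count of 1 became 0 with limma-voom, the replicate block (Jun -1.12, edgeR adjusted p = 0.163), the first principal component or the oligodendrocyte score, and 2 with the 2 arms alone (Fos and Jun) or with both libraries left out. With 1 library left out it ran from 0 to 2. Between the doses the count of 0 became 1, Fosb, with DESeq2, 2 arms alone, the replicate block (0.83, edgeR adjusted p = 0.0206) or the cortical score, and ran from 0 to 1 with 1 library left out. For the mean of both doses the count of 1 became 0 with limma-voom, the block, the first principal component or the oligodendrocyte score, and 3 with both libraries left out, and ran from 1 to 3. The 2-arm fit was not run for that mean, which needs all arms.

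Over all genes, the 4, 185, 4 and 114 called in these comparisons became 53, 659, 6 and 429 with DESeq2, 2, 5, 5 and 4 with limma-voom, 7, 125, 4 and 82 without the filter, 0, 0, 4 and 6 with the block, 3, 8, 5 and 8 with the cortical score, 10, 12, 5 and 15 with the first principal component, 5, 8, 6 and 6 with the oligodendrocyte score and 27, 76, 9 and 65 with both libraries left out. With the 2 arms alone they were 1, 448 and 6. With 1 library left out they ran from 1 to 70, 9 to 894, 4 to 8 and 19 to 624.

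Replicate numbers do not pair the libraries: over 20 same-numbered pairs the correlation of deviations ran from -0.42 to 0.21. With that block the ratio of Fosb to Fos differed by 1.22 (exact sign-flip permutation p = 0.25) and 1.79 (exact sign-flip permutation p = 0.0625) at 7.5 and 15 mg/kg, and that of Jun to Jund by -0.86 (exact p = 0.1875) and -0.83 (exact p = 0.125). With 5 pairs 0.0625 is the smallest p. Leaving out 1 library gave -1.03 to -0.60 for Jun to Jund at 7.5 mg/kg.

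Signs turned for Jund with the first principal component and the oligodendrocyte score, to 0.049 and 0.024 at 7.5 mg/kg, 0.11 and 0.11 at 15 mg/kg, 0.062 and 0.082 between the doses and 0.081 and 0.066 for the mean. Between the doses Jund ran from -0.12 to 0.030 with 1 library left out and turned to 0.029 with both left out. For Fosl2 at 15 mg/kg they turned with limma-voom (0.044), the block (0.27), the first principal component (0.18) and the oligodendrocyte score (0.14), and with 1 library left out (-0.22 to 0.40). For its mean of both doses they turned with the block (0.039) and 1 library left out (-0.46 to 0.16). Fos between the doses ran from -0.0078 to 0.60 with 1 library left out, and Rps6ka1 between the doses turned to 0.048 with the oligodendrocyte score. Normalization changed no sign or call of a subunit. Apart from the alternatives' own construction, the causes were not tested.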
